A study of Rattus norvegicus with 6 samples.

Results

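The antioxidant and glutathione genes described here are 45 genes chosen by name for their part in removing superoxide, peroxides and reactive metabolites, or in making and using glutathione. They and the other gene lists below were chosen with earlier results of these data known, so shares set against all genes are descriptions. Of the 33509 genes in the deposited table, 44 carried one of these names, and 42 of them had enough counts to be tested. Gpx4 and Gsta3 had too few counts to be tested, and Gstm2 was not analysed here. The genes were measured by RNA sequencing of myocardial tissue from Sprague-Dawley rats, in 6 libraries. In 3 libraries (XHT 1 to XHT 3) the animals carried a model of acute myocardial infarction and were given XHT, which the title of the series spells out as Xinhuitong. The other 3 libraries (MOD 1 to MOD 3) came from the same infarction model without XHT. Both groups thus share the infarct, and no heart without one was analysed here. The labels gave neither the dose of XHT, the time since infarction, the region of heart sampled nor whether a library stands for 1 animal, so p-values measure only the spread between these samples, which may be technical.

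Heart muscle makes superoxide and hydrogen peroxide mainly as by-products of mitochondrial respiration. Superoxide dismutases turn superoxide into hydrogen peroxide, which catalase, the glutathione peroxidases and the peroxiredoxins then reduce. Most glutathione peroxidases draw their electrons from glutathione and most peroxiredoxins draw theirs from thioredoxin. Reductases that use NADPH keep both carriers reduced. Many of these genes are driven by the transcription factor NRF2, the product of Nfe2l2, which KEAP1 holds back and which binds a short DNA motif called the antioxidant response element.

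Library totals lay between 16550007 and 17724689 counts. Levels below are in CPM, which gives a count relative to the size of its library, after TMM scaling, a method that sets libraries to a common level through the bulk of their genes. A count of 0 allows up to 3 counts, which was 0.148 to 0.204 CPM depending on the library and covers counting error only. MOD 3 stood apart from the other MOD libraries in its cell markers. The summed level of 7 cardiomyocyte markers was 24692 to 35815 CPM in XHT libraries, against 2068 CPM in MOD 1, 1712 CPM in MOD 2 and 18476 CPM in MOD 3, and 1 of the 7 was called, as higher. All 7 log2 fold changes were positive, with a median of 2.11, and 7 were called higher without MOD 3, 4 with the replicate number as a block and 4 with DESeq2. Fibroblast markers summed to 1749 to 4513 CPM in XHT and to 22799 to 61469 CPM in MOD, with 7 of 8 lower. Macrophage markers summed to 317 to 442 CPM in XHT and to 988 to 1423 CPM in MOD, also with 7 of 8 lower. For 12 nuclear genes of the respiratory chain, chosen as markers of mitochondrial content, the sum was 16357 to 21484 CPM in XHT. It was 2079, 2011 and 9328 CPM in MOD 1, 2 and 3. Counts from the mitochondrial genome made up 27.1% to 29.8% of each XHT library, against 22.9%, 15.6% and 22.8% in MOD 1, 2 and 3. By that measure MOD 3 did not stand above MOD 1. Of the 12 nuclear genes, 5 were higher. All 12 lay above MOD in every XHT library, and 12 were called higher without MOD 3, with the replicate number as a block and with DESeq2. With 1 library left out, edgeR called 0 to 7 markers in each of the cardiomyocyte, fibroblast and macrophage lists and 0 to 12 of the respiratory chain genes. Endothelial markers summed to 1104 to 1260 CPM in XHT and 822 to 1516 CPM in MOD, with 1 of 5 lower. Erythrocyte markers summed to 578 to 3974 CPM in XHT and 152 to 639 CPM in MOD, with 1 of 4 higher. The sum of 6 adipocyte markers, 1 of which was tested and not called, was 569.9 to 1442 CPM in XHT and 395 to 952 CPM in MOD. No marker of these lists was at 0 in every library of a group, so cardiomyocyte markers of the labelled tissue were detected in both groups. The part of these differences in the results below was not tested. In bulk tissue, fewer cells of a type and less RNA per cell cannot be told apart.

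Of the 42 tested genes, 18 were higher in XHT than in MOD and 5 were lower at an adjusted p under 0.05 (quasi-likelihood test of edgeR, adjusted after Benjamini and Hochberg over all 14488 genes tested, and given below as edgeR adjusted p). Over all genes tested, 12.4% were higher and 16.1% were lower, or 28.5% either way, against 54.8% of the antioxidant and glutathione genes. Their median log2 fold change was 0.82, and it was -0.02 over all genes. The XHT libraries lay wholly above the MOD libraries for 23 genes and wholly below them for 7, which holds for 24.7% and 26.6% of all genes tested. The genes higher in XHT were mitochondrial and cytosolic enzymes, catalase, 3 glutathione transferases, both metallothioneins and Gclm. The 5 lower genes were Prdx4, Gpx7 and Gpx8 of the endoplasmic reticulum, the transferase Gstt1 and the cystine transporter Slc7a11. Of these, Slc7a11 alone passed the count filter through 1 group only, the MOD libraries, so its call supports nothing. The change was over 2-fold for 14 of the 18 higher genes and for all 5 lower ones. Slc7a11 is counted in these 5, in the 7 genes wholly below MOD and in the 54.8%.

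**Figure D1:**
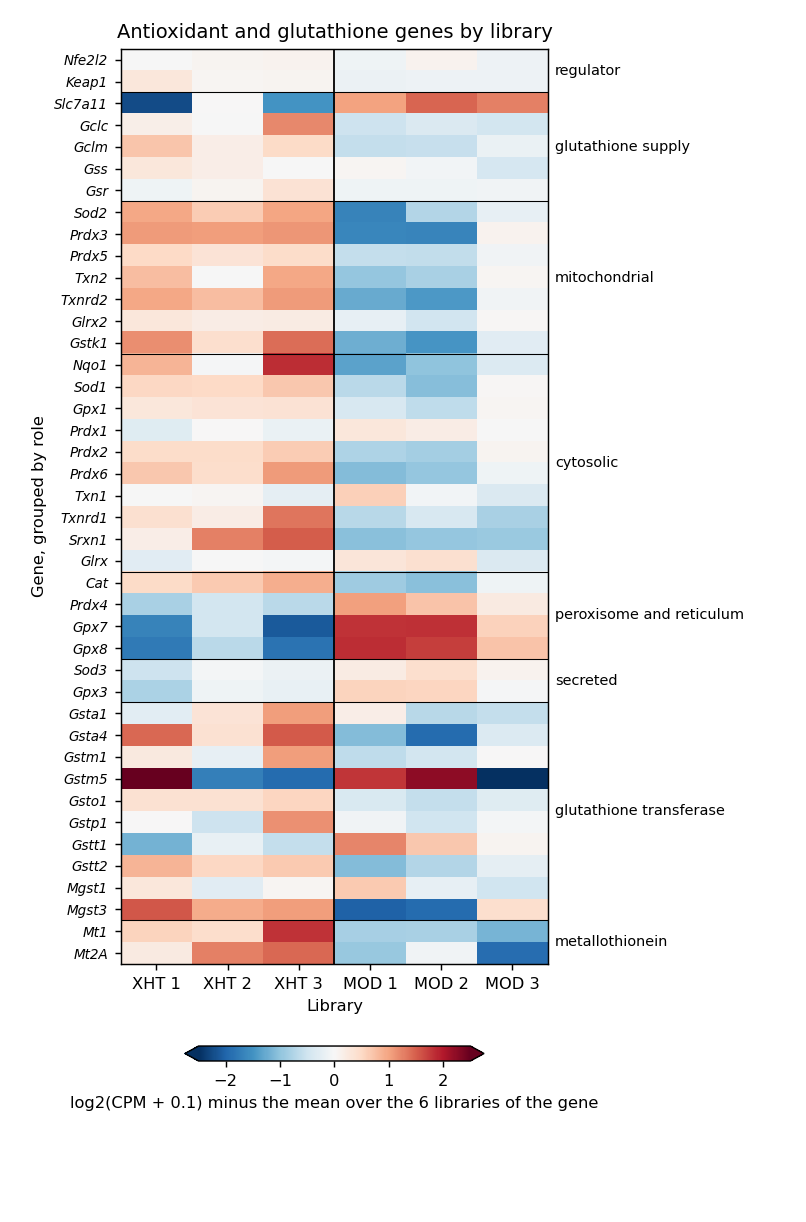
Heat map of the 42 tested genes (rows, grouped by role) in the 3 XHT and 3 MOD libraries (columns). Colour gives log2(CPM + 0.1) minus the mean of the gene over the 6 libraries. The mitochondrial block is mostly red in XHT and blue in MOD 1 and MOD 2, with MOD 3 pale, and Prdx4, Gpx7 and Gpx8 show the opposite colours.

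The number of calls changed with single libraries, although the directions did not. With all 6 libraries, 26 of the genes had an unadjusted edgeR p under 0.05. Without XHT 1 that number was 26 too, but 0 of the genes were called by edgeR, and 0.0535% of all genes tested were. Without XHT 3, 1 gene was called (Mt1, higher), against 2.90% of all genes tested. Without MOD 1, 1 was called (Gpx8, lower), against 3.42% of all genes tested. Without MOD 2, 3 were called (Mt2A higher, Gpx8 and Prdx4 lower), against 5.41%. In those 3 fits 22 to 24 of the genes had an unadjusted p under 0.05. Without XHT 2, 20 of the genes and 24.0% of all genes tested were called, and without MOD 3, 28 of the genes and 46.2%. All 23 called genes kept their sign in each of these 6 fits. Within the groups, XHT 3 was the highest of the 6 libraries for 23 of the 42 genes and XHT 2 for 0, while MOD 3 was the highest MOD library for 22. Scaling by total counts in place of TMM moved the median of all genes to -0.42 and gave 13 higher and 7 lower genes. Over the whole table it gave 925 higher and 4320 lower genes (6.38% and 29.8%), in place of 1792 and 2336. DESeq2 called 22 of the genes higher and 5 lower, against 16.2% and 16.6% of all genes it tested. In the authors' deposited table, 22 of the genes were higher and 5 lower at an adjusted p under 0.05, against 13.4% and 13.7% of the 19690 genes with an adjusted p there, and 23 were called in both tables with the same direction.

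**Figure D2:**
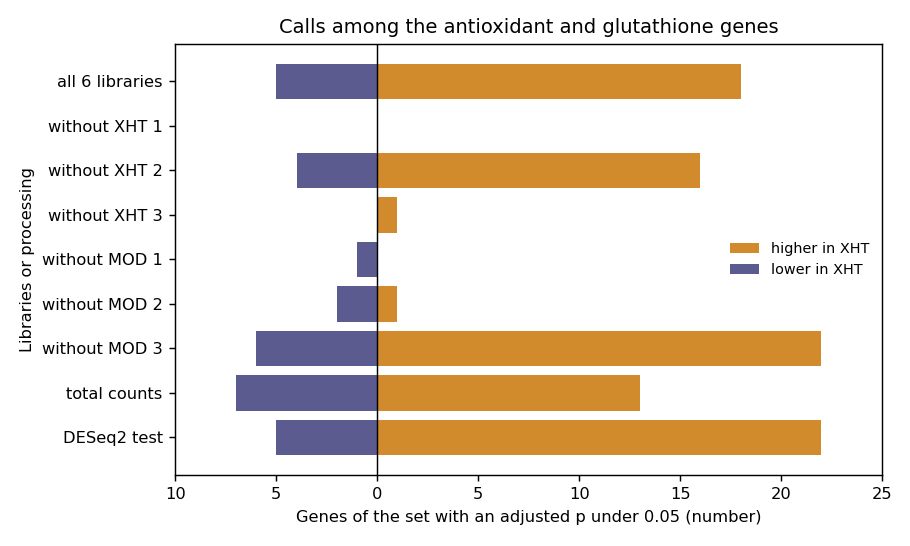
Number of antioxidant and glutathione genes with an adjusted p under 0.05 (horizontal axis; higher in XHT to the right of 0, lower to the left) with all 6 libraries, without each library in turn, with scaling by total counts and with DESeq2. The bars shrink to 0 without XHT 1 and reach 22 higher and 6 lower without MOD 3.

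Both regulators missed the threshold. Nfe2l2, which encodes the activator NRF2, was at 87.6, 93.2 and 94.5 CPM in XHT 1, 2 and 3, against 82.8, 94.0 and 81.3 CPM in MOD 1, 2 and 3. The groups overlapped, and the log2 fold change was 0.09 ± 0.16 (SE; edgeR adjusted p = 0.669). Keap1, which encodes the adaptor that marks NRF2 for breakdown, was at 65.4, 55.4 and 56.5 CPM in XHT, against 48.8, 49.2 and 49.2 CPM in MOD. All 3 XHT libraries lay above the tight MOD values, and the log2 fold change of 0.27 ± 0.15 did not pass (edgeR adjusted p = 0.197). With scaling by total counts both signs turned, to -0.31 for Nfe2l2 and -0.13 for Keap1. Of these 2 genes, 0 had an unadjusted p under 0.05 and 0 were called by DESeq2.

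Among the 5 genes that supply and recycle glutathione, 1 was higher and 1 was lower, with a median log2 fold change of 0.28. Glutamate-cysteine ligase makes the first bond of glutathione from a catalytic subunit, Gclc, and a modifier subunit, Gclm. Gclm was at 35.9, 25.1 and 31.2 CPM in XHT libraries, against 14.6, 14.9 and 19.7 CPM in MOD libraries. The groups did not overlap, and Gclm rose (log2 fold change 0.90 ± 0.21, edgeR adjusted p = 0.0235), a call lost with total-count scaling. Gclc was at 34.0, 30.6 and 71.3 CPM in XHT, against 21.3, 24.0 and 22.3 CPM in MOD. XHT 3 was more than 2-fold above the other XHT libraries, and Gclc missed the threshold (1.01 ± 0.33, edgeR adjusted p = 0.0555). The authors' deposited table gave Gclc an adjusted p of 0.0269. Slc7a11, the light chain of the exchanger that brings in cystine, had 0, 6 and 1 counts in XHT 1, 2 and 3, against 16, 24 and 20 counts in MOD 1, 2 and 3. It was near the detection limit in both groups, at 0 to 0.377 CPM in XHT and 0.843 to 1.19 CPM in MOD, with a log2 fold change of -2.69 ± 0.85 (edgeR adjusted p = 0.0494). It passed the count filter through the MOD libraries only, so the call is not read as a difference between the groups. Without XHT 2, the XHT library with 6 counts, its log2 fold change was -4.65, and it was no longer called with the replicate number as a block (edgeR adjusted p = 0.0516) or in the legacy quasi-likelihood fit, the older estimator of edgeR (0.0553). Gss, which adds the last amino acid of glutathione, and Gsr, the reductase that recycles it, overlapped between groups, at log2 fold changes of 0.28 and 0.22 (edgeR adjusted p = 0.292 and 0.351), which turned negative with total-count scaling (-0.11 and -0.18).

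Among the 7 enzymes placed with the mitochondrion, 5 were higher, and all 7 log2 fold changes were positive, with a median of 1.62. Sod2, the manganese superoxide dismutase of the matrix, was at 423, 339 and 430.4 CPM in XHT, against 68.0, 131 and 188 CPM in MOD. Its means were 397 ± 51.2 CPM in XHT and 129 ± 60.0 CPM in MOD (SD, n = 3 each), and Sod2 rose (log2 fold change 1.62 ± 0.38, edgeR adjusted p = 0.0238). Every XHT library lay above every MOD library, of which MOD 3 was the highest. Prdx3, the peroxiredoxin of the matrix, was at 267, 261 and 274 CPM in XHT, against 40.7, 40.2 and 135 CPM in MOD. The XHT libraries were nearly level with each other, while MOD 3 was more than 3-fold above MOD 1 and MOD 2. Prdx3 rose (1.90 ± 0.49, edgeR adjusted p = 0.0310), and without MOD 3 its log2 fold change was 2.74.

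Txnrd2, the reductase that recycles mitochondrial thioredoxin, was at 47.1, 41.1 and 50.4 CPM in XHT, against 9.96, 8.79 and 22.7 CPM in MOD (log2 fold change 1.74 ± 0.37, edgeR adjusted p = 0.0194). Txn2, the mitochondrial thioredoxin itself, was at 207, 120.5 and 236 CPM in XHT, against 62.5, 69.1 and 126 CPM in MOD. MOD 3 reached above XHT 2, and Txn2 missed the threshold (1.13 ± 0.36, edgeR adjusted p = 0.0544), with an adjusted p of 0.0154 in the authors' deposited table. Prdx5, a peroxiredoxin found in mitochondria and other compartments, was at 191, 170.3 and 184 CPM in XHT, against 89.4, 88.2 and 126 CPM in MOD. Gstk1, the kappa-class glutathione transferase of mitochondria and peroxisomes, was at 56.0, 33.1 and 65.7 CPM in XHT, against 10.7, 8.89 and 20.5 CPM in MOD. Neither gene overlapped between groups, and both rose, Prdx5 by 0.84 ± 0.21 and Gstk1 by 1.95 ± 0.39 on the log2 scale (edgeR adjusted p = 0.0287 and 0.0169). Glrx2, the mitochondrial glutaredoxin, was not called (0.43, edgeR adjusted p = 0.112). For all of these genes MOD 3 was the MOD library nearest to XHT, as it was for the summed cardiomyocyte and respiratory chain markers.

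**Figure D3:**
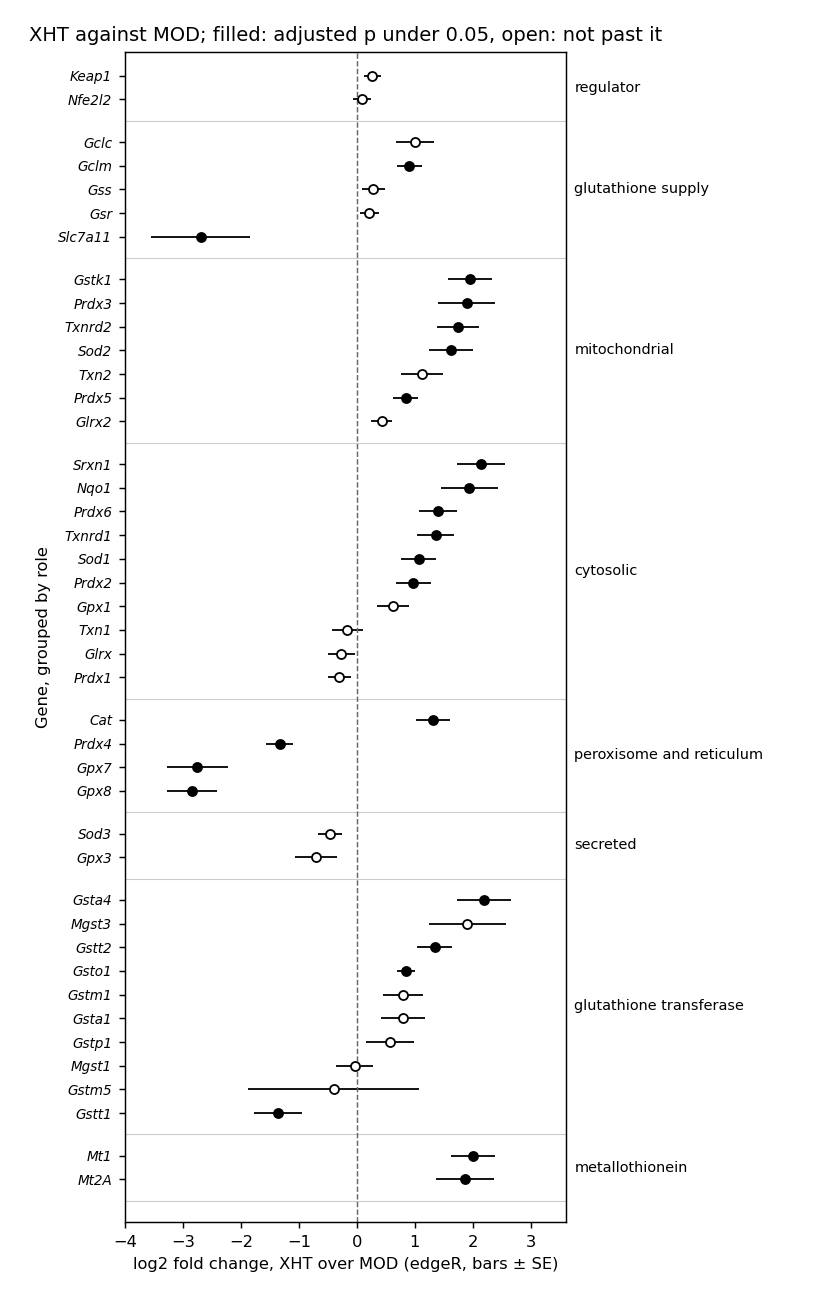
log2 fold change (XHT over MOD, horizontal axis) of each tested gene, with whiskers of 1 SE, grouped by role. Filled points are past an adjusted p of 0.05 and open points are not. The mitochondrial enzymes lie between 0.43 and 1.95, and Prdx4, Gpx7 and Gpx8 lie between -2.84 and -1.33.

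In the cytosol, 6 of 10 tested genes were higher, with a median log2 fold change of 1.02. With TMM scaling, 0 were lower by edgeR, also at an unadjusted p under 0.05, and 0 were lower by DESeq2. Sod1, the copper-zinc superoxide dismutase, was at 262, 260.4 and 293 CPM in XHT, against 115, 87.5 and 187 CPM in MOD. It rose without overlap (log2 fold change 1.06 ± 0.30, edgeR adjusted p = 0.0394). Peroxiredoxins 2 and 6 rose as well. Prdx2, which reduces hydrogen peroxide with electrons from thioredoxin, was at 345, 345 and 387 CPM in XHT, against 147, 139.5 and 264 CPM in MOD. Prdx6, which also reduces oxidised phospholipids, was at 281, 238 and 369 CPM in XHT, against 83.7, 90.1 and 163 CPM in MOD. The log2 fold changes were 0.97 ± 0.30 for Prdx2 and 1.40 ± 0.33 for Prdx6 (edgeR adjusted p = 0.0486 and 0.0245). The call of Prdx2 was lost with no count filter and in the legacy fit of edgeR (adjusted p = 0.0515 and 0.0539). Total-count scaling ended the calls of Sod1, Prdx2 and the mitochondrial Prdx5. Prdx1, the close relative of Prdx2, was at 146, 182 and 160 CPM in XHT, against 219, 204 and 179 CPM in MOD. Its groups overlapped (-0.30, edgeR adjusted p = 0.269), and with total-count scaling it was called lower (-0.69, edgeR adjusted p = 0.0431).

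Nqo1, Txnrd1 and Srxn1 rose as well. Nqo1, a quinone reductase, was at 30.6, 16.4 and 61.1 CPM in XHT, against 6.64, 8.35 and 13.3 CPM in MOD. XHT 3 was highest and XHT 2 only just above MOD 3, and the log2 fold change of 1.93 ± 0.49 (edgeR adjusted p = 0.0298) was 1.33 without XHT 3. Txnrd1, the cytosolic thioredoxin reductase, was at 130.2, 113 and 249 CPM in XHT, against 61.4, 74.7 and 56.2 CPM in MOD. Here too XHT 3 was the highest library, and MOD 3 was the lowest (1.36 ± 0.32, edgeR adjusted p = 0.0258). Srxn1, the sulfiredoxin that restores overoxidised peroxiredoxins, was low, at 3.06, 6.65 and 7.89 CPM in XHT, against 1.26, 1.33 and 1.39 CPM in MOD. Its log2 fold change was 2.14 ± 0.41 (edgeR adjusted p = 0.0159).

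Gpx1, the main cytosolic glutathione peroxidase, was at 619, 645 and 655 CPM in XHT, against 385, 330.5 and 528 CPM in MOD. The groups did not overlap, and Gpx1 did not pass the threshold (0.63 ± 0.28, edgeR adjusted p = 0.121), whereas the authors' deposited table gave it an adjusted p of 0.0328. Per kilobase of gene length Gpx1 was the most abundant of the genes in XHT, at a mean of 733 CPM per kilobase, against 475 in MOD. Gpx4, which reduces lipid peroxides in membranes, had 3, 5 and 8 counts in XHT, against 4, 2 and 0 in MOD, and was not tested. Of the 2798 bases of its interval, 2298 overlap Sbno2 on the opposite strand, which had 6571 counts, and whether the counting told strands apart is not given in the sources here, so the level of Gpx4 is uncertain in these data. Txn1 and Glrx, the cytosolic thioredoxin and glutaredoxin, overlapped between groups (-0.16 and -0.27, edgeR adjusted p = 0.655 and 0.399).

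**Figure D4:**
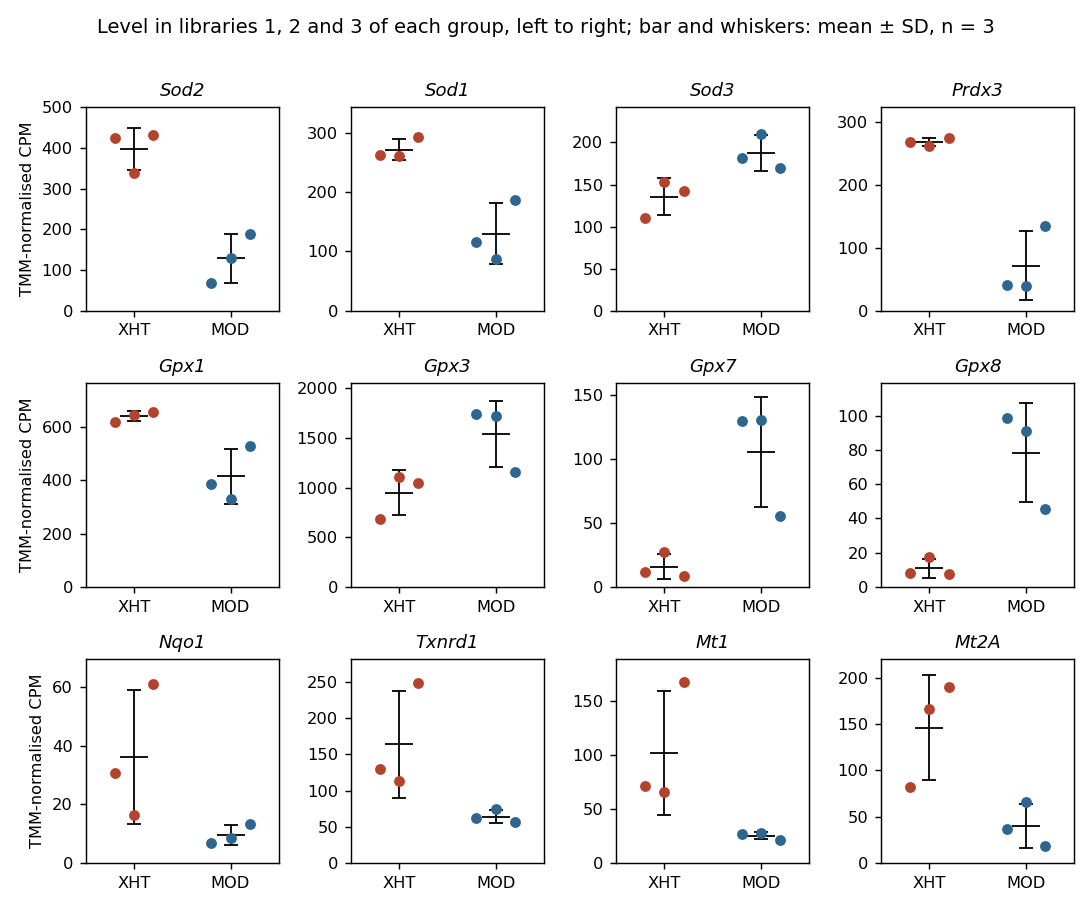
TMM-normalised CPM (vertical axes, from 0) of 12 genes in the 3 XHT libraries (red) and the 3 MOD libraries (blue), with the mean and SD of each group. In every panel but those of Sod3, Gpx3, Gpx7 and Gpx8 the XHT points lie above the MOD points, and in these 4 they lie below.

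Of the 4 genes of the peroxisome and the endoplasmic reticulum, 1 was higher and 3 were lower, with a median log2 fold change of -2.04. Catalase (Cat), the peroxisomal enzyme that splits hydrogen peroxide, was at 202, 227 and 271 CPM in XHT, against 77.7, 70.1 and 134 CPM in MOD. It rose (log2 fold change 1.31 ± 0.30, edgeR adjusted p = 0.0224). Gpx7 and Gpx8 are peroxidases of the endoplasmic reticulum, where hydrogen peroxide arises as proteins form disulfide bonds, and Prdx4 is the peroxiredoxin of the same compartment. Gpx7 was at 11.6, 26.9 and 8.57 CPM in XHT, against 130.3, 131 and 55.6 CPM in MOD. Gpx8 was at 7.98, 17.2 and 7.55 CPM in XHT, against 98.6, 91.1 and 45.3 CPM in MOD. Prdx4 was at 22.7, 28.8 and 24.8 CPM in XHT, against 80.4, 64.9 and 46.5 CPM in MOD. In all 3 genes XHT 2 was the highest XHT library and MOD 3 the lowest MOD library, and the groups did not overlap. All 3 fell, with log2 fold changes of -2.75 ± 0.52 for Gpx7, -2.84 ± 0.43 for Gpx8 and -1.33 ± 0.23 for Prdx4 (edgeR adjusted p = 0.0156, 0.0113 and 0.0136). Without XHT 2 the log2 fold change of Gpx7 was -3.37. The summed fibroblast markers too were highest in XHT 2 among XHT libraries and lowest in MOD 3 among MOD libraries.

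The secreted enzymes lay below MOD in every XHT library and were not called. Gpx3, the glutathione peroxidase of extracellular fluid and plasma, was at 688, 1103 and 1048 CPM in XHT, against 1743, 1719 and 1156 CPM in MOD. Its means were 947 ± 225 CPM in XHT and 1539 ± 332 CPM in MOD (SD, n = 3 each), with a log2 fold change of -0.70 ± 0.36 (edgeR adjusted p = 0.172). Sod3, the extracellular superoxide dismutase, was at 111, 153 and 142 CPM in XHT, against 182, 210.4 and 169 CPM in MOD. Its log2 fold change was -0.47 ± 0.21 (edgeR adjusted p = 0.126), and with total-count scaling it was called lower, as was Prdx1. Of these 2 secreted enzymes, 0 had an unadjusted p under 0.05 and 0 were called by DESeq2. Without MOD 3, Gpx3 was called lower (-0.86, edgeR adjusted p = 0.0359), in a fit that called 46.2% of all genes tested. Per kilobase of gene length Gpx3 averaged 645 CPM per kilobase in XHT and 1049 in MOD, where it was above every other gene of the set.

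Pairs of related enzymes, and the subunits Gclc and Gclm, were then compared as ratios of counts within a library, which do not depend on the scaling between libraries. The count of Prdx3 over that of Prdx1 was 1.83, 1.43 and 1.71 in XHT 1, 2 and 3, against 0.186, 0.197 and 0.755 in MOD 1, 2 and 3. The ratio was above 1 in each XHT library and in no MOD library. The genes differ in length, so such a ratio is read between libraries and not as the relative abundance of the transcripts. Gpx3 over Gpx1 was 1.11, 1.71 and 1.599 in XHT, against 4.52, 5.20 and 2.19 in MOD. Sod3 over Sod1 was 0.422, 0.589 and 0.487 in XHT, against 1.58, 2.41 and 0.904 in MOD. The secreted enzyme was lower relative to its cytosolic counterpart in every XHT library than in any MOD library. On the log2 scale the means differed by 2.45 for Prdx3 over Prdx1, by -1.36 for Gpx3 over Gpx1 and by -1.61 for Sod3 over Sod1 (XHT minus MOD). Each of these had a two-sided exact permutation p of 0.1, the smallest that 3 against 3 libraries allow, and 0.267 after Benjamini-Hochberg adjustment over the 8 pairs compared. The groups overlapped for Sod2 over Sod1 (0.60), Txn2 over Txn1 (1.25), Txnrd2 over Txnrd1 (0.59), Glrx2 over Glrx (0.68) and Gclc over Gclm (-0.00), with exact permutation p-values of 0.2 to 1.0. For Sod2 over Sod1, MOD 1 at 0.591 was the lowest library, while MOD 2 at 1.49 lay just above XHT 3 at 1.47.

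**Figure D5:**
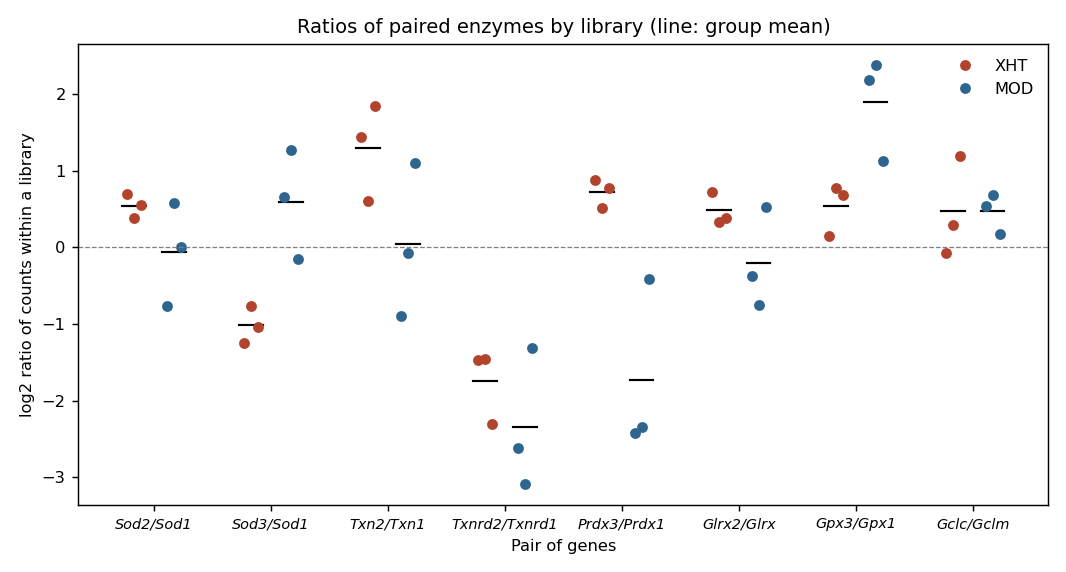
log2 ratio of the counts (vertical axis) of 8 pairs of genes (horizontal axis) in each XHT (red) and MOD (blue) library, with a line at the group mean. The groups are apart for Prdx3 over Prdx1, Sod3 over Sod1 and Gpx3 over Gpx1, and they overlap for the other 5 pairs.

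Glutathione transferases join glutathione to reactive molecules. Of 10 tested, 3 were higher and 1 was lower, with a median log2 fold change of 0.79. Gsta4, which detoxifies hydroxynonenal from oxidised lipids, was at 40.5, 19.4 and 43.0 CPM in XHT, against 6.95, 3.85 and 11.6 CPM in MOD. It had the highest log2 fold change of the set (2.20 ± 0.46, edgeR adjusted p = 0.0192). Gsto1, an omega-class enzyme that also reduces oxidised vitamin C, was at 57.6, 57.8 and 64.4 CPM in XHT, against 34.1, 29.5 and 35.9 CPM in MOD. The libraries of each group were close together, and Gsto1 rose by 0.85 ± 0.15 on the log2 scale (edgeR adjusted p = 0.0145). Its interval lies inside that of Gsto2 on the same strand, which had 88 counts against 4675 for Gsto1. The theta-class genes Gstt2 and Gstt1 moved in opposite directions. Gstt2 was at 9.11, 7.16 and 7.96 CPM in XHT, against 2.32, 2.96 and 4.27 CPM in MOD, and rose (1.34 ± 0.30, edgeR adjusted p = 0.0227). Gstt1 was at 1.66, 3.39 and 2.52 CPM in XHT, against 9.17, 6.22 and 4.06 CPM in MOD, and fell (-1.36 ± 0.41, edgeR adjusted p = 0.0462), a call lost with the replicate number as a block and in the legacy fit.

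The other 6 tested transferases were not called. Mgst3, a membrane-bound transferase, was at 249.5, 160.1 and 175 CPM in XHT, against 20.7, 22.2 and 113 CPM in MOD. MOD 3 was about 5-fold above the other MOD libraries, and the log2 fold change of 1.90 ± 0.67 missed the threshold (edgeR adjusted p = 0.0686), though it was called in the authors' deposited table (adjusted p = 0.0101). Without MOD 3 its log2 fold change was 3.20 (edgeR adjusted p = 0.00028), and it was also called with the replicate number as a block and by DESeq2. Gstp1, the pi-class enzyme, was at 141, 98.3 and 309 CPM in XHT, against 132.5, 99.0 and 136 CPM in MOD. XHT 3 alone stood out, and without it the log2 fold change of 0.58 was -0.022. Gstm5 was at 6.58, 0.251 and 0.204 CPM in XHT, against 3.90, 5.33 and 0.0514 CPM in MOD, so that XHT 1, MOD 1 and MOD 2 were high and the other 3 libraries low whatever their group. Gsta1 and Gstm1 had log2 fold changes of 0.79 each and Mgst1 of -0.04, with overlapping groups. Gsta3 had 1 count in XHT and 1 in MOD. All 14643 bases of its interval overlap Gsta1 on the opposite strand, which had 8018 counts, so its level is uncertain too. Transferases of 1 class are alike in sequence, so reads may be shared between them and the values are less certain than those of the other enzymes.

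The metallothioneins Mt1 and Mt2A, small cysteine-rich proteins that bind zinc and copper and take up oxidants, both rose, though the call of Mt2A was lost with total-count scaling (edgeR adjusted p = 0.0617). Mt1 was at 71.3, 65.3 and 168 CPM in XHT, against 27.0, 27.5 and 21.5 CPM in MOD. XHT 3 was more than 2-fold above the other XHT libraries, all 3 lay above MOD, and the log2 fold change was 2.00 ± 0.38 (edgeR adjusted p = 0.0158). Mt2A was at 81.8, 166.5 and 190.0 CPM in XHT, against 36.3, 65.7 and 18.6 CPM in MOD (1.86 ± 0.50, edgeR adjusted p = 0.0342). MOD 3, nearest to XHT among MOD libraries for 15 of the 18 higher genes, was the MOD library farthest from XHT for both metallothioneins and for Txnrd1. A second identifier named Mt1 lies on chromosome 17 inside the interval of Dclre1c, and it had 20.2, 16.8 and 48.1 CPM in XHT, against 6.22, 8.45 and 9.83 CPM in MOD. Reads may be shared between this copy and the gene on chromosome 19, so its values are uncertain.

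Metallothionein promoters carry repeated metal response elements, the sites of the zinc-sensing factor MTF1. The 250 bases before each start are shown because the pair rose together, from RefSeq on build GRCr8 with matches to TGCACNC or TGCGCNC on either strand in capitals. They lie at chr19:10832976-10833225 for Mt1 and chr19:10838709-10838958 for Mt2A, both on the minus strand.
Mt1: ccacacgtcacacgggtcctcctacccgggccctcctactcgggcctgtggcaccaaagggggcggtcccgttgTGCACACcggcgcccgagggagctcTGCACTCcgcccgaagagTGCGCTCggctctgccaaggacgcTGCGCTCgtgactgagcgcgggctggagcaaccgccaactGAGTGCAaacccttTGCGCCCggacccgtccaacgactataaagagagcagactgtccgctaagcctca
Mt2A: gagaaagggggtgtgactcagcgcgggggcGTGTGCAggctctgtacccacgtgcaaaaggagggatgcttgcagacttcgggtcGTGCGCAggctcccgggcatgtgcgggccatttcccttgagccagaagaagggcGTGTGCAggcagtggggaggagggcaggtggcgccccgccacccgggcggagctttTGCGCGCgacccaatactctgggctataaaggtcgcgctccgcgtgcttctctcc
Mt1 held 6 matches and Mt2A 4. Of all 33469 promoter windows of 300 bases (250 before and 50 after the start), 0.439% held 4 or more, and of 39 genes of the set with a window these 2 did, or 5.13%. At least 1 match was in 25.6% of the genes and 24.2% of all windows. Shares of genes took any window of a gene and shares of all windows took each window by itself, so they are not like for like.

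The core of the antioxidant response element, TGACNNNGC on either strand, was in the windows of 13 of these 39 genes, or 33.3%, against 12.1% of all windows. A gene with several windows counted when any of them held a match, whereas the share of all windows takes each window by itself. These shares are thus not like for like. The core was present in 6 of 16 genes called higher and 1 of 3 called lower that had a window. The matches of 3 higher genes, of Prdx4, which fell, and of Prdx1, which was not called, are shown with 8 flanking bases and the fixed letters in capitals, each read on the strand of the match.
Gclm, chr2:213031955-213031979, minus strand: gaagacaaTGACtaaGCagaaaccg
Txnrd1, chr7:22755966-22755990, plus strand: tgtcagaaTGACaaaGCaaaaatcc
Sod2, chr1:50050187-50050211, plus strand: ctaggcgcTGACcctGCcggcagcg
Prdx4, chrX:43878744-43878768, minus strand: cgtttccaTGACcaaGCgagcacga
Prdx1, chr5:135383763-135383787, minus strand: gcggggtaTGACtcaGCgctttccc
The match began 172, 78, 35 and 135 bases before the start in Gclm, Txnrd1, Sod2 and Prdx1, and that of Prdx4 lay after the start. A match is a description of letters and no evidence of binding. Nqo1 and Srxn1 had no match in this window, which says nothing of sites farther away. Windows of Gsr, Sod3, Gpx8, Prdx6, Gstt1 and Gstt2 were not analysed here.

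Of 60 other genes of the pathway on a list of regulators, glutathione and NADPH enzymes and repair enzymes, 52 were tested. Of these, 16 were higher and 5 lower, or 40.4% either way, with a median log2 fold change of 0.53. Over all genes tested, 12.4% were higher and 16.1% lower, or 28.5% either way, so the share of lower genes was below that of all genes. Sesn1, a sestrin of the p53 stress response, was at 470, 176 and 336 CPM in XHT, against 32.3, 22.9 and 49.0 CPM in MOD (3.24 ± 0.45, edgeR adjusted p = 0.0106). Maff and Mafk encode small Maf proteins that pair with NRF2 on DNA. Maff was at 102, 117 and 192 CPM in XHT, against 32.6, 34.7 and 44.5 CPM in MOD, and Mafk was at 139, 135 and 203 CPM, against 42.7, 42.9 and 68.9 CPM in MOD. Both rose without overlap, by 1.88 and 1.63 on the log2 scale (edgeR adjusted p = 0.0109 and 0.0132). Slc3a2, the heavy chain that carries the Slc7a11 protein and other transporters to the membrane, was at 320, 223 and 466 CPM in XHT, against 89.2, 99.98 and 66.2 CPM in MOD. It rose (1.98 ± 0.33, edgeR adjusted p = 0.0126), and all XHT libraries lay above all MOD libraries. Hagh, which frees glutathione in the detoxification of methylglyoxal, was at 44.5, 36.8 and 42.3 CPM in XHT, against 13.6, 14.6 and 21.8 CPM in MOD (1.31 ± 0.22, edgeR adjusted p = 0.0133). Txnip, the inhibitor of thioredoxin, was at 1417, 1678 and 1047 CPM in XHT, against 569, 400.3 and 672 CPM in MOD, and rose (1.34 ± 0.35, edgeR adjusted p = 0.0330), a call lost with the replicate number as a block (0.0552) and with total-count scaling (0.0635). The other 10 higher genes, named after their values were seen, were Bach1, Sqstm1, Nfe2l1, Mafg, Msrb3, Gstz1, Txnrd3, Me1, Sirt3 and Nnt, with log2 fold changes of 0.81 to 2.49. Total-count scaling ended the calls of Mafg, Me1, Nnt, Txnrd3, Msrb3 and Sirt3, and that of Nnt was also lost with no count filter and in the legacy fit. Without MOD 3 the log2 fold change of Nnt was 3.83.

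Among the lower genes, Tkt, the transketolase of the pentose phosphate pathway, was at 66.9, 88.1 and 70.6 CPM in XHT, against 197, 174 and 133 CPM in MOD (log2 fold change -1.16 ± 0.22, edgeR adjusted p = 0.0157). MOD 3 was the lowest MOD library and XHT 2 the highest XHT library. Mt3, another metallothionein gene, known mostly from brain, was at 0.665, 1.26 and 0.408 CPM in XHT, against 2.74, 5.93 and 4.99 CPM in MOD (-2.54 ± 0.51, edgeR adjusted p = 0.0176). It was near the detection limit in XHT, where 3 counts were 0.188 to 0.204 CPM. The call of Mt3 is thus uncertain and is not set against those of Mt1 and Mt2A. Sesn3, another sestrin, was at 10.9, 8.54 and 10.3 CPM in XHT, against 15.1, 16.2 and 19.0 CPM in MOD, and Blvra, a biliverdin reductase, was at 11.8, 17.9 and 15.6 CPM, against 26.1, 26.4 and 20.6 CPM in MOD. Both fell, by 0.76 and 0.69 on the log2 scale (edgeR adjusted p = 0.0318 and 0.0491). The call of Blvra was lost with DESeq2 size factors, with no count filter, with the replicate number as a block, in the legacy fit and by DESeq2 (adjusted p of 0.0511 to 0.0645). Hmox1, the inducible heme oxygenase, was at 139, 162 and 157 CPM in XHT, against 188, 78.2 and 46.2 CPM in MOD. MOD 1 was the highest of the 6 libraries, and Hmox1 was not called (0.55 ± 0.47, edgeR adjusted p = 0.389). Without MOD 1 its log2 fold change was 1.29 (edgeR adjusted p = 0.0596). Without XHT 1, 0 of these other genes were called by edgeR (24 had an unadjusted p under 0.05), against 0.0535% of all genes tested. Without XHT 3 the higher and lower genes numbered 3 and 0, against 2.90% of all genes called either way. The numbers were 1 and 1 without MOD 1 (3.42% of all genes), 3 and 1 without MOD 2 (5.41%) and 23 and 7 without MOD 3 (46.2%). Total-count scaling gave 9 and 8, against 6.38% and 29.8% of all genes.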

How the data were processed

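The authors deposited a single table of whole-number counts, FPKM and a comparison of their own. Versions named in the submitters' processing notes are featureCounts 1.5.0-p3, HISAT2 2.0.5, DESeq2 1.16.1 and StringTie 1.3.3b. Genome build, strand setting and use of the molecular identifiers were not given in the sources used here. RNA was extracted with Trizol, poly(A)-selected and made into dUTP libraries read as pairs, per the labels' protocols, so RNAs without a tail are under-represented. FPKM values, per the file headers, were not tested. The p-values and log2 fold changes in the authors' deposited table serve only to describe their comparison.

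Counts were analysed with edgeR 4.0.16 in R 4.3.3: filterByExpr (minimum count 10, minimum total 15), TMM scaling, and a robust quasi-likelihood model with group as its only term, over all genes, with Benjamini-Hochberg adjustment at 0.05. SE is the log2 fold change over the square root of F. TMM factors were 0.83 to 0.92 in XHT and 1.10 to 1.22 in MOD, and the common biological coefficient of variation was 0.35. No pair of libraries agreed within sampling noise (lowest chi-square over its degrees of freedom 43.6). The fit was tested on simulated data with few genes changed, as many up as down. A shift as broad as that between these groups was not simulated. Ratios of counts used a pseudocount of 0.5 and exact permutation tests (scipy 1.17.1). Lists were described by counts and medians only.

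The genes, their roles and the lists were chosen with earlier results of these data known. Values per library are given for every called gene and a set list of others, for up to 5 other pathway genes in each direction by lowest p, and for Hmox1 and Txnip; some values are not reported here. Values per library of Txn2, Prdx1, Gstp1, Gstm5 and Mgst3 were added after they were seen. Mt1 is represented by its identifier with most counts. The alternatives were DESeq2 size factors, total counts, leaving out the mitochondrial genome, no filter, a replicate block, the legacy fit, DESeq2 1.42.0 and each library left out in turn.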

Additional observations from a re-analysis of the deposited data

How the results depend on the processing

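The 23 called genes kept their direction under every alternative tried, and their number changed most with single libraries left out. Without 1 library, higher genes numbered 0 to 22 and lower genes 0 to 6 in the set, 0 to 23 and 0 to 7 among the other pathway genes, and 4 to 3487 and 4 to 3421 among all genes, and the cause was not tested. Total-count scaling gave 925 higher and 4320 lower genes over the table, against 1792 and 2336 with TMM, and 9 and 8 among the other pathway genes, against 16 and 5. It turned the signs of Nfe2l2 (-0.31), Keap1 (-0.13), Gss (-0.11) and Gsr (-0.18), none of them called, as the median of all genes moved to -0.42. DESeq2 called 22 higher and 5 lower genes of the set, against 16.2% and 16.6% of all genes it tested. DESeq2 size factors gave 19 and 5 (13.5% and 15.7% of all genes tested), no count filter 17 and 5 (7.87% and 10.7%), leaving out the mitochondrial genome 18 and 5 (12.6% and 16.1%), and the legacy fit 17 and 3 (11.6% and 15.4%).

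With the replicate number as a block, 20 were higher and 3 lower, against 14.5% and 15.9% of all genes tested: Slc7a11 and Gstt1 were lost, Txn2 and Mgst3 gained, and Mgst1 turned to 0.029. Deviations of same-numbered libraries correlated at -0.07, 0.25 and 0.12. XHT 2 correlated best with MOD 2 and XHT 3 with MOD 3, while XHT 1 too correlated best with MOD 3 (0.15). Deviations within groups of 3 libraries cannot decide whether the numbers pair the samples, and the labels do not say. Other signs that turned without 1 library belonged to genes not called: Txn1 ranged over -0.34 to 0.16, Gstm5 over -3.71 to 0.24, Gstp1 over -0.022 to 0.89, Mgst1 over -0.24 to 0.37 and the log2 ratio of Gclc to Gclm over -0.36 to 0.27. A pseudocount of 1 turned no ratio. Low counts limit Slc7a11, Gpx4 and Gsta3. Whether depth or the overlap of Gpx4 and Gsta3 with other genes lies behind them was not tested. The 3 libraries a group limit the exact tests to p = 0.1.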
